A study of Drosophila melanogaster and Drosophila yakuba and Drosophila virilis with 6 samples.

Results

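Many Drosophila genes gave sequence tags at more than 1 place, and the places used most were not always the same in the eye-antennal and the wing disc library. The positions described here are those of D. melanogaster genes that had 2 or more tag positions with at least 50 tags each, summed over both libraries. The rule chose 2587 positions in 1056 genes, out of 84161 listed positions, of which 65648 were assigned to a gene. A further 4147 genes had only 1 position with 50 or more tags. The tag sums of the 2 libraries chose the members, so their abundance is a description. A position with tags in 1 library only needed all 50 there to enter.

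Tags were counted in 2 kinds of imaginal disc, the epithelial sacs from which the adult eye and antenna (eye-antennal disc) and the adult wing and notum (wing disc) form. Wandering larvae of the last instar were the source. The labels give the strain CantonS for D. melanogaster and no strain for the other species, D. yakuba and D. virilis. Each of the 6 combinations of species and disc had 1 library, with no replicate, so no test between discs was possible. Every difference below compares 2 libraries and not 2 conditions, and every 95% interval covers counting error only, of reads without molecular identifiers. The labels do not give the number of larvae or whether discs were pooled. Paired values are given for the eye-antennal library first and the wing library after it. The D. melanogaster libraries held 2207612 and 1860370 tags. Positions with a single tag made up 60.5% and 39.4% of those listed.

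In tag profiling a polyadenylated transcript is cut by NlaIII, which recognises CATG, and a tag is read beside a site. With complete digestion and capture by the poly(A) tail, the tag comes from the site nearest the 3′ end. A gene that ends its transcripts at several poly(A) sites, or splices in different last exons, can therefore give several tags. Incomplete digestion leaves tags at sites further upstream, and a base difference that makes or removes a CATG moves the tag. Many Drosophila genes are known to lengthen their 3′ untranslated region in neurons and to shorten it in testis.

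Among the genes with alternative positions, 768 had 2 members, 184 had 3 and 62 had 4, and Act5C, which encodes a cytoplasmic actin, had the most with 9. The members held 59.9% and 62.2% of all gene tags. Within their own genes they held about 98% of the tags of each library. Of the gene identifiers 942 were in the annotation used, which gave their symbol and strand, and 114 were not. Of the annotated genes with 1 position, 28.3% had 2 or more annotated 3′ ends at least 50 bases apart. The share was 43.1% among the genes described below as shifted and 49.9% among the remaining genes with alternative positions. Median annotated gene length was 3590 bases in shifted genes, 3486 bases in the others and 2825.5 bases in genes with 1 position.

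Neighbouring positions stood at a preferred distance. In the whole list 12119 pairs of positions lay exactly 18 bases apart, against 40 to 172 pairs at every other distance from 10 to 30 bases. Tags span 22 bases with the 4-base NlaIII site at one end, so tags read in both directions from the same site start 18 bases apart. The listing gives no strand, but this distance gives the direction of each such pair. At 4234 sites both directions were listed for the same gene of known strand, with at least 50 tags in sum. The tag on the strand of the gene had more tags at 90.7% of these sites. Opposite-strand tags made up 6.56% and 6.31% of the tags at these sites.

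**Figure D1:**
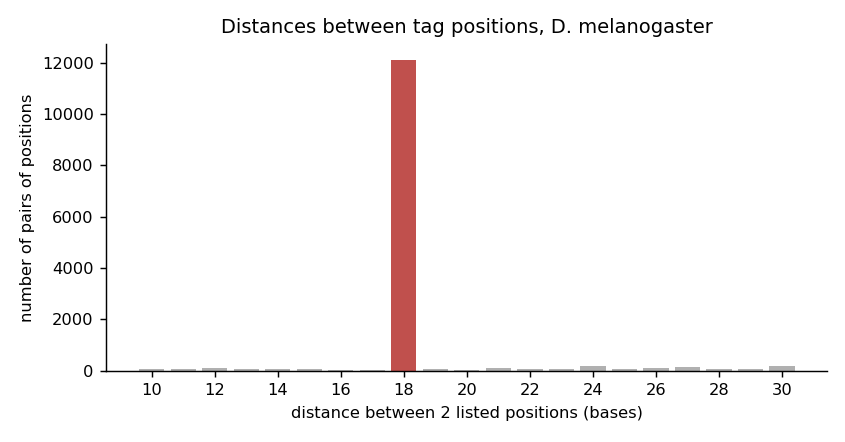
Number of pairs of listed D. melanogaster tag positions (vertical axis) at each distance from 10 to 30 bases (horizontal axis). The red bar at 18 bases holds 12119 pairs, and no other distance holds more than 172.

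By this reading 1329 members lay on the coding strand, 526 on the opposite strand, and 732 could not be assigned. In 143 genes the only 2 members were the coding and the opposite tag of 1 site. At least 1 opposite-strand member was present in 427 genes, and 47.5% of these overlapped an annotated gene on the other strand, against 36.3% of the other annotated genes. In 88 genes the member with the most tags was an opposite-strand tag, and 75% of these genes overlapped a gene on the other strand. Tags of a gene and of an antisense neighbour cannot be told apart by the gene assignment of the files. Of the 1531 pairs of neighbouring members, 344 (22.5%) were 18 bases apart and 1132 were 30 bases or more apart. The median distance of the latter was 491.5 bases, with quartiles of 219 and 1019.25 bases.

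Of 162 genes with at least 1000 tags in each library, 10 passed the rule for a shift given below. The 3 genes that follow were taken from those with the smallest differences among these. RpS7, a protein of the small ribosomal subunit, had 23464 and 15104 tags at its coding tag on 3R, starting at 26032272. Coordinates are those of FlyBase release 5 as the files give them, and their place in exons is not given, because the annotation used is of another build. The coding tag of RpS7 held 95.5% and 95.8% of the gene's tags, a difference of -0.22 percentage points (Newcombe 95% interval -0.62 to 0.20). The opposite tag of the same site, 18 bases away, had 1090 and 668 tags. RpL34b, of the large subunit, had 5650 and 15068 tags at its main position on 3R (5226452), or 99.1% of its tags in both libraries. Its total differed between the libraries while the division did not differ beyond counting error. Hsp83, the Hsp90 chaperone of the fly, had 5216 and 5732 tags at its main position on 3L (3196633), or 98.3% and 98.4%.

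Genes with many members were also among those that did not pass the rule for a shift given below. Act5C had 3 coding tags with most of its counts, at 5798122, 5798300 and 5798725 on X. Their shares were 26.6% and 16.1% at the first, 25.7% and 34.4% at the next and 43.7% and 38% at the last. The first was the larger of the upstream pair in eye-antennal discs and the smaller in wing discs, but none of its members reached a difference of 20 points. Its opposite-strand tag at 5798282 had 55 and 857 tags. mod(mdg4), a BTB gene known for joining a shared 5′ part to many alternative 3′ exons, had 8 members spread over 21887 bases on 3R. No member held more than 16.6% of its tags in eye-antennal discs or more than 11.7% in wing discs. The largest difference of mod(mdg4) was 7.43 points (4.74 to 9.88), at 17183383, with 179 and 36 tags. ttk, another BTB gene with alternative 3′ exons, had 276 and 160 tags at its upstream member and 426 and 356 at its downstream member. The leading member of ttk was the same in both libraries.

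A gene was counted as shifted when the share of a member in the gene's tags differed by at least 20 percentage points between the libraries by the interval bound nearer 0. Genes needed at least 20 tags in each library, which left 1048 genes, and 150 of them (14.3%) were shifted. The median gene had a largest difference of 11.6 points, with quartiles of 5.04 and 20.7 points. In 81 genes (7.73%) a different member held the most tags in each library, with both leading members past the rule. These leading members lay 337 bases apart in the median, from 6 to 12925 bases, and only 3 of these 81 pairs were the 2 directions of 1 site.

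The order along the gene was known for 934 genes, from the strand of the gene. The most downstream member, the one nearest the 3′ end, held a larger share in the eye-antennal library in 74 of them (7.92%) by the same rule. It held a larger share in the wing library in 38 (4.07%). Over all 934 genes the most downstream member held a median of 57.7% and 54.0% of the tags. The median difference was 2.61 points. Among genes with 2 or more coding-strand members 62 of 381 (16.3%) were shifted when only these members were used.

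**Figure D2:**
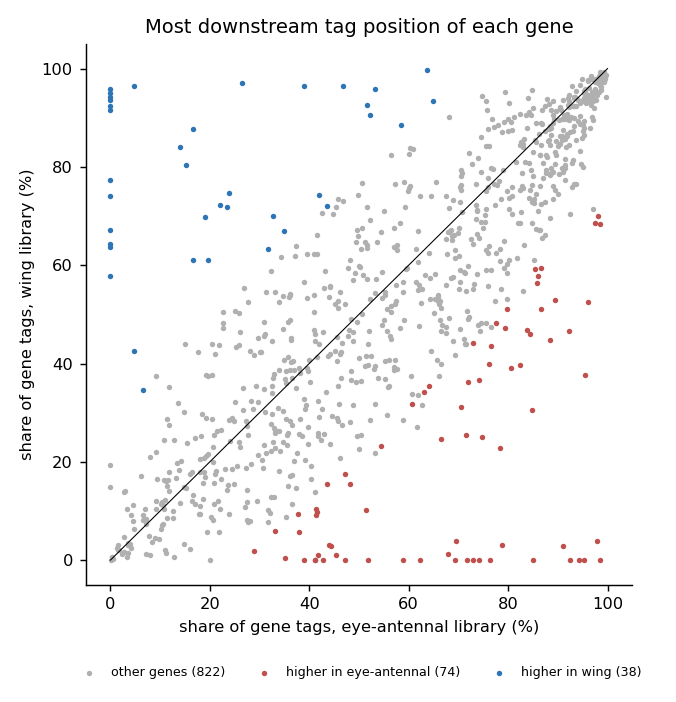
Share of a gene's tags at its most downstream member, in percent, with the eye-antennal library on the horizontal and the wing library on the vertical axis, with 1 point for each of 934 genes. Red points are the 74 genes with a larger share in the eye-antennal library, blue points the 38 with a larger share in the wing library, grey points the rest, and the line marks equal shares.

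Among genes whose downstream member was higher in the eye-antennal library was Rab11, which encodes a GTPase of recycling endosomes. Its members lay 161 bases apart on 3R, both on the coding strand. The upstream one (16941291) had 31 and 364 tags, and the downstream one (16941452) had 1073 and 0 tags. The downstream member thus held 95.3% of the eye-antennal tags and none of the wing tags, where a count of 0 allows up to 0.781% (3 tags). mxc, whose protein organises the histone locus body, had 367 and 0 tags at its downstream member on X (9131073). Its upstream member (9131925), 852 bases away, had 1 and 67 tags. Dip-C, which encodes dipeptidase C, had 136 and 0 tags downstream (8237638 on 3R) and 1 and 127 tags upstream (8237854). In these 3 genes nearly all tags of each library lay at a position that was almost unused in the other. Unlike in Rab11, not both members of mxc and of Dip-C were read on the coding strand, the rest being opposite or unassigned.

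Cth, the gene of cystathionine gamma-lyase, had 0 and 117 tags upstream (14516543 on 2R) and 92 and 5 tags downstream, 151 bases away. Tbca, which encodes a tubulin-folding cofactor, had 13 and 93 tags upstream (27569532 on 3R) and 222 and 3 tags downstream, 312 bases away. Rac2, which encodes a small GTPase, had 114 and 0 tags downstream (7426238 on 3L) and 0 and 85 tags upstream, 269 bases away. mor, a subunit of the Brahma chromatin remodelling complex, showed the same order less completely. It had 171 and 2 tags downstream (11794215 on 3R) and 17 and 43 tags upstream. Arp5, known as a subunit of the INO80 complex, had 703 and 0 tags at 14013554 on 3R, but there the reading was on the strand opposite to the gene. Its upstream member, 74 bases away, had 11 and 81 tags. Both members of Cth were read on the coding strand, but not both of Tbca, Rac2 or mor, the rest being opposite or unassigned.

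The reverse order, with the downstream member higher in the wing library, was seen in ncd, a minus-end directed kinesin of the spindle. ncd had 11 and 380 tags downstream (25630516 on 3R) and 204 and 3 tags upstream, 100 bases away, both on the coding strand. The downstream share was 4.82% and 96.4%, a difference of -91.6 points (-94.2 to -87.3). pbl, the guanine nucleotide exchange factor needed for cytokinesis, had 0 and 112 tags downstream (7889243 on 3L) and 295 and 4 tags upstream. DCTN3-p24, a dynactin subunit, had 0 and 114 tags downstream (18949487 on 2R) and the reverse use of a member only 33 bases upstream, with a share of 95.5% and 1.67%. Both members of pbl were read on the coding strand, but not both of DCTN3-p24.

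wls, which encodes the carrier needed for Wingless secretion, had 0 and 146 tags downstream (11160099 on 3L) and 281 and 4 tags upstream, 427 bases away. Tmtc3 had 0 and 117 tags downstream (17011354 on 2R) and 540 and 7 tags upstream. Ldh, lactate dehydrogenase, had 0 and 63 tags downstream (6252857 on 3L) and 190 and 20 tags upstream, 125 bases away. A downstream count of 0 in these genes allows a share of at most 1.04% in wls, 0.554% in Tmtc3 and 1.33% in Ldh. tub, an adaptor of the Toll pathway, used both members in the eye-antennal library, with 143 tags upstream (215207 on 3R) and 55 downstream. In the wing library tub had 1 and 129 tags at these members. In wls, Tmtc3, Ldh and tub not both members were read on the coding strand, the rest being opposite or unassigned.

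The ribosomal protein genes mostly kept their division of tags, with exceptions at single positions. Tags shared with near-identical copies, as in ribosomal protein and actin genes, could be placed at either copy, and no source used here says how the authors treated them. Of 61 tested, 4 were shifted (6.56%, against 14.3% of all genes), and their median largest difference was 2.32 points. Among all genes with 3000 or more tags over both libraries 7.10% were shifted, with a median largest difference of 2.72 points. Whether ribosomal protein genes differ from other genes of like depth was not tested. RpLP2, an acidic protein of the ribosomal stalk, had 6 members within 437 bases on 2R. The downstream coding tag (12474145) had 0 and 12901 tags, while the opposite tag of the same site (12474127) had 513 and 267 tags. The coding tag at the next site upstream (12474044) had 201 and 107 tags. The wing library was thus far higher at 1 of the 6 members, and the eye-antennal library had more tags at 3 of the other 5. The largest share difference was -95.7 points as listed and -40.2 points with positions closer than 30 bases merged.

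RpS6, of the small subunit, had 880 and 5800 tags at its downstream coding tag on X (7794197) and 3065 and 2148 tags at an opposite-strand tag 660 bases upstream (7794857). The coding tag of that upstream site (7794839) had only 46 and 64 tags. The downstream share of RpS6 was 22% and 72.2%, a difference of -50.2 points (-51.8 to -48.5). RpL7A had 6288 and 12004 tags at its main coding tag on X (6425068) and 2706 and 1208 at an opposite-strand tag 39 bases upstream (6425107). Its main share differed by -21.3 points (-22.4 to -20.2), just past the rule. Merging positions closer than 30 bases joins whole chains of listed positions, so these tags 39 bases apart fell together with those between them. The difference was then -0.28 points, and the gene was not shifted. RpS9 had 1764 and 1378 tags at a coding tag on 3L (9503026) and 194 and 890 at another further upstream (9503577).

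**Figure D3:**
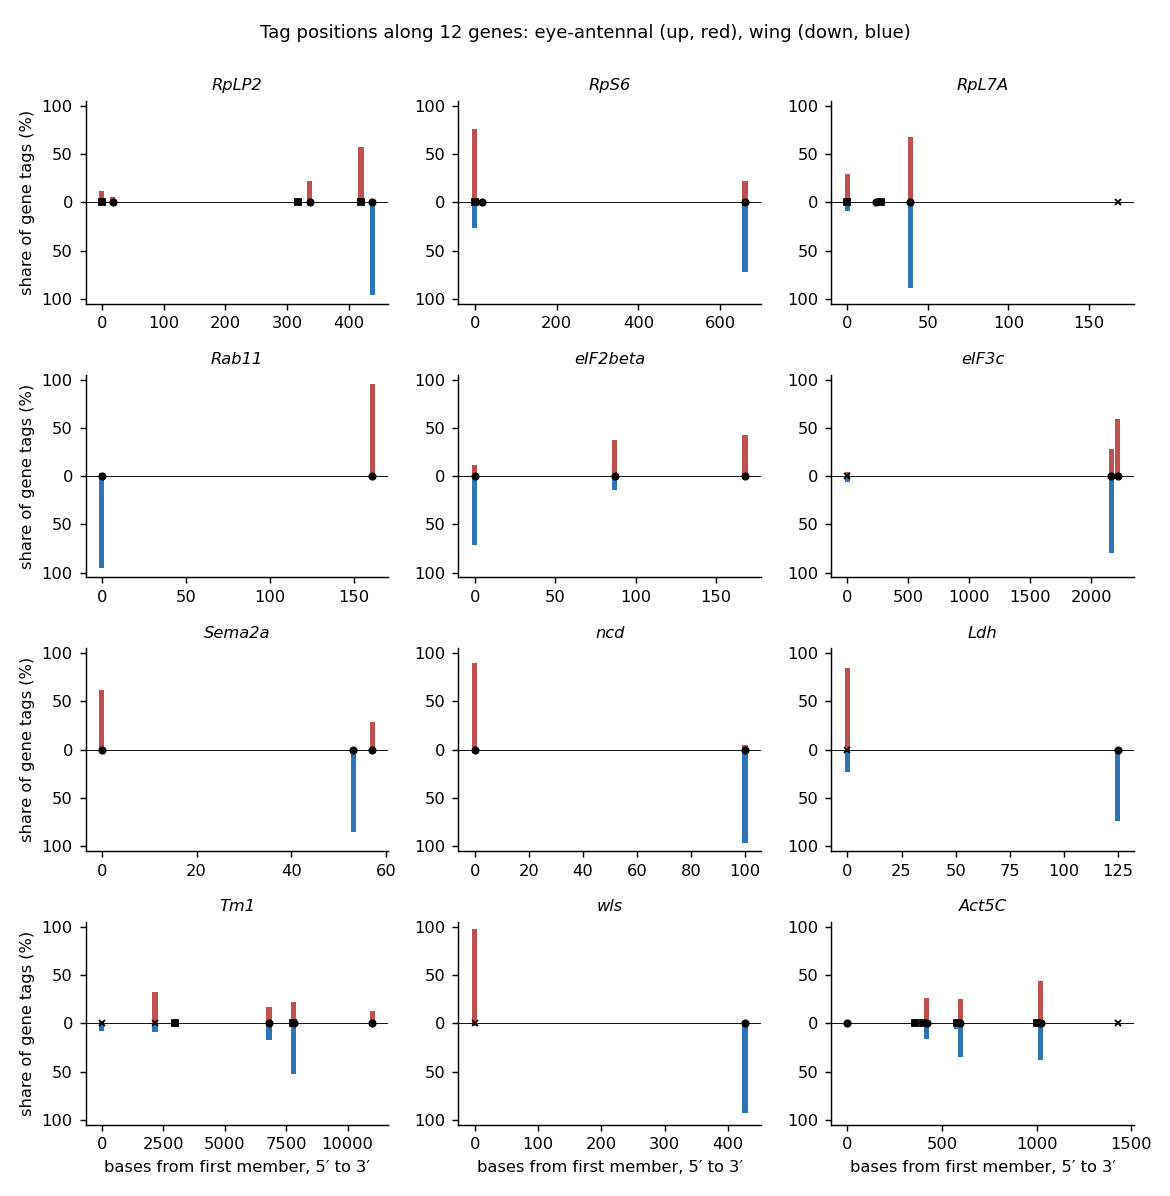
Share of each member in the gene's tags (vertical axis, percent), upward in red for the eye-antennal and downward in blue for the wing library, against the distance from the gene's first member in bases (horizontal axis, 5′ to 3′), for 12 genes. Circles mark coding-strand members, squares opposite-strand members and crosses members of unknown strand. Rab11, ncd and wls have their upward and downward bars at different positions, while Act5C has them at the same ones.

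Genes of translation factors were shifted in 5 of 14 tested (35.7%, against 14.3% of all genes), with a median largest difference of 19.0 points. The 5 were eEF1alpha2, eIF2beta, eIF3a, eIF3c and eIF4B. eIF2beta, a subunit of the factor that brings the initiator tRNA, had 3 coding tags within 168 bases on 3L. They had 44 and 355 tags (12518655), 140 and 70 tags (12518568) and 159 and 0 tags (12518487) from upstream to downstream. The share moved from the downstream members in the eye-antennal library to the upstream one in the wing library. eIF3c, of the large initiation factor that binds the small subunit, had 151 and 427 tags at 13556494 on 2R and 320 and 0 tags 54 bases downstream (13556548). eEF1alpha2, an elongation factor gene, had 138 and 2 tags upstream (27567885 on 3R) and 311 and 129 tags downstream, 1075 bases away. In eIF4B both members were read as opposite-strand tags, with 608 and 433 tags (2902485 on 2RHet) and 73 and 315 tags 10096 bases away. The strand of the gene came from another build, and whether 2RHet runs the same way there was not checked.

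Sema2a, which encodes a secreted semaphorin, had 3 coding tags within 57 bases on 2R. The upstream one (12420499) had 435 and 5 tags. The next, at 12420552, had 0 and 314 tags, and the last, only 4 bases further, had 204 and 7 tags. Of the 3 members, 2 were thus used almost only in the eye-antennal library and the one between them was listed only in the wing library. The largest share difference of Sema2a was -84.9 points as listed and -57.5 points with positions closer than 30 bases merged. CG1354 had 57 and 610 tags upstream (9675877 on X) and 2828 and 386 tags 219 bases downstream. sun, the gene of an epsilon subunit of ATP synthase, had 174 and 706 tags at its downstream coding tag on X (15741918) and 189 and 11 tags at its upstream one.

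The shares of the other gene groups stand against the 14.3% over all tested genes. Of the 15 tested genes on the list of respiratory chain and ATP synthase genes, which does not hold sun, 1 (6.67%) was shifted, ND-49, a subunit of complex I. ND-49 had 411 and 130 tags at an opposite-strand tag on chromosome 4 (587858) and 142 and 362 at its coding tag (589037). Of 13 actin, tubulin and other cytoskeletal genes 2 (15.4%) were shifted, Act42A and Tm1, a share near that of all genes. Act42A, a cytoplasmic actin, had 2308 and 1353 tags at 1901484 on 2R and 208 and 754 tags at a coding tag 24 bases upstream (1901508). With positions closer than 30 bases merged, the largest difference of Act42A was 0.52 points and the gene was not shifted. None (0%) was shifted among 20 RNA-binding and splicing protein genes, 8 heat shock and chaperone genes, 11 disc patterning and signalling genes and 7 histone variant and chromatin genes. There was none either among 5 genes with known neural 3′ extensions, 3 BTB genes, 3 ecdysone response genes and 2 genes of 3′ end processing factors. Groups of this size are given as counts only.

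Among those not past the rule, heph, a polypyrimidine tract binding protein, had 161 and 44 tags at its upstream member (27676853 on 3R), a difference of 24.2 points (18 to 30.1), which passed the rule at 27.4 points with positions closer than 30 bases merged and at 29.1 points over member tags only. elav, the neuronal RNA-binding protein used as a marker of neurons, had 139 and 8 tags downstream (407875 on X) and 56 and 14 tags upstream, 266 bases away. Its downstream share was 58.9% and 28.6%, and the interval of the difference, 10.8 to 45.0 points, was wide because the wing library held only 28 elav tags. yki, the transcriptional effector of the Hippo pathway, had 159 and 101 tags downstream (19954082 on 2R) and 16 and 34 tags upstream.

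Libraries of whole discs hold other tissues too, and fewer cells of a type and less RNA per cell cannot be told apart. Markers of the eye-antennal disc, all 6 with tags in both libraries, summed to 2393 and 83.5 tags per 1000000. Those of the wing disc summed to 19.9 and 265 tags per 1000000, with ap at 0 in both libraries. Fat body markers, 8 and 7 of 8 with tags, summed to 16826 and 29197 tags per 1000000. Larval muscle markers, 9 of 11 with tags, summed to 2192 and 945 tags per 1000000, and their defining genes Mhc and wupA were at 0 in both libraries. Brain and neuron markers, 9 and 7 of 10 with tags, summed to 650 and 84.6 tags per 1000000. All but 2 of the 7 salivary gland markers had too few positions for comparison, and the list summed to 369 and 5027 tags per 1000000.

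Of the shifted genes, 2 stand in these marker lists. Lsp1gamma, a storage protein of the fat body, had 683 and 2783 tags at 68615 on 3L and 1186 and 1436 tags at a coding tag only 6 bases away (68621). Its largest difference was 28.8 points as listed and 1.71 points with positions closer than 30 bases merged, when it was not shifted. Its related gene Lsp1alpha, also a storage protein, differed by no more than 0.25 points at any member. Tm1, which encodes both muscle and cytoskeletal tropomyosins from alternative exons, had 7 members over 11001 bases on 3R. It had 283 and 66 tags at 11125015, 190 and 372 tags at 11130650, and 110 and 4 tags at its most downstream member (11133846). The middle one of these was higher in the wing library and the outer ones in the eye-antennal library. The tags of Tm1 are themselves part of the larval muscle marker sum. The part of other tissues in these results was not tested.

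Positions with 50 or more tags in 1 library and 0 in the other made up 56 of the 2570 tested members (2.18%), of which 23 were at 0 in eye-antennal discs and 33 in wing discs. They lay in 52 genes, of which 48 were shifted. Much of this overlap follows from the rules, since 50 tags are a large share of a gene with few tags. Among genes with a single position, 82 of 4147 (1.98%) were of this kind, so the share was near that of the members. By the same rule within each species it was 1 of 4077 members (0.0245%) in D. yakuba and 12 of 3682 (0.326%) in D. virilis. At 39 of the 56 the other direction of the same site was also listed. In 32 of the 39 the other direction was at 0 as well in the library where the member was at 0. Many of these other directions had few tags in all, such as 0 and 1 at Cth, Ldh and pbl. A 0 there says little about the site. Both directions of a Phf5a site are among the 32. At the downstream Rab11 site the other direction had 14 and 0 tags, at the Arp5 site 47 and 0, and at the mxc site 17 and 0. RpLP2 was the one with the most tags among the other 7.

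In 49 genes (4.64%) the members moved apart, with 1 at least 2-fold higher in eye-antennal discs and another in wing discs, by the interval bound nearer 1 after TMM scaling. Counted singly, 175 of 2587 members (6.76%) were 2-fold higher in eye-antennal discs and 358 (13.8%) in wing discs. Among the only positions of other genes the shares were 7.14% and 9.12%. Of the 150 shifted genes, 30 were 2-fold higher in a disc library by their summed tags. Without the member with the largest share difference, 18 of the 30 no longer were, 6 were 2-fold higher in the other disc library, and 6 kept their side. A further 53 of the 120 others became 2-fold different. Leaving out the member with the largest difference moves the sum of a shifted gene the other way by construction. In the 898 genes that were not shifted, the same step took 37 of 90 below 2-fold, turned 0 of them and left 53 on their side. It made 39 of the 808 others 2-fold different.

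Rab11 in sum was 2.25-fold higher in the eye-antennal library (2 to 2.53), and without its downstream member it was 9.44-fold higher in the wing library (7.07 to 12.8). RpLP2 in sum was 19.7-fold higher in the wing library, and without the 1 coding tag it was 1.19-fold higher in the eye-antennal library (1.07 to 1.33). RpS6 went from 2.62-fold higher in the wing library (2.52 to 2.72) to 1.07-fold higher in the eye-antennal library (1.01 to 1.13). CG1354 went from 2.21-fold higher in the eye-antennal (2.06 to 2.38) to 6.24-fold higher in the wing library (5.17 to 7.57). These 4 genes, chosen after their values were seen, lay on the other side once a single position was left out.

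The libraries of the other species were not used to choose the members. The authors' genome mappings of D. yakuba and D. virilis give D. melanogaster coordinates for their positions, so the same places could be compared. Shares of these species at such places are of the gene's tags that were placed on the D. melanogaster genome. In D. yakuba 1547 members of 847 genes were listed, in genes with at least 20 placed tags in each library. Of these, 123 (7.95%) were past the rule in D. melanogaster and 4 (0.259%) in D. yakuba. The 123 differed by a median of 41.4 points in D. melanogaster and by 2.80 points in D. yakuba, and 104 of them by under 10 points there. The difference had the same sign in 70 of the 123. The remaining members differed by a median of 5.72 points in D. melanogaster and 1.53 points in D. yakuba. A member itself needed no minimum of tags in D. yakuba, and one with a small share in both libraries there could not differ by 20 points. The contrast with D. melanogaster, where each member needed 50 tags, is therefore partly set by the rules.

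In D. virilis 400 members could be compared, under the same conditions and with the same limit. Of these, 37 (9.25%) were past the rule in D. melanogaster and 4 (1%) in D. virilis. The 37, in 34 genes, differed by a median of 41.0 points in D. melanogaster and 2.36 points in D. virilis. The sign was the same in 23 of the 37. By their own positions, chosen by the same rule within each species, 27 of 1598 genes (1.69%) were shifted in D. yakuba and 65 of 1412 (4.6%) in D. virilis. Of 557 genes tested in both D. melanogaster and D. yakuba, 70 were shifted in the former, 4 in the latter and 3 in both. For D. virilis the counts were 47, 21 and 4 of 409 genes.

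**Figure D4:**
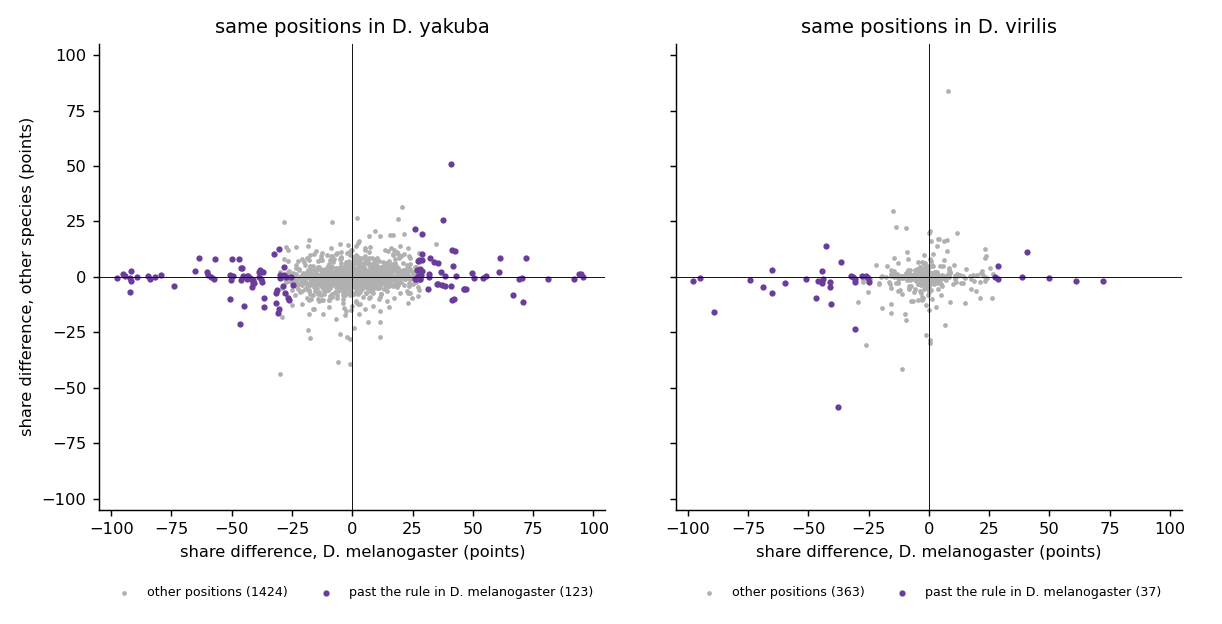
Difference in share between the eye-antennal and the wing library (percentage points, eye-antennal minus wing) at the same positions in D. melanogaster (horizontal) and in D. yakuba or D. virilis (vertical). Purple points are members past the rule in D. melanogaster, 123 and 37 in the panels, which mostly lie near 0 on the vertical axis.

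Individual sites show the same pattern. At the downstream site of wls, with 0 and 146 tags in D. melanogaster, D. yakuba had 283 and 196 tags, or 81.6% and 88.3% of the gene's placed tags. At the downstream site of Ldh the share was 0% and 74.1%, against 89.8% and 94.1% for D. yakuba and 87.7% and 89.3% for D. virilis. The Sema2a site listed only in the wing library of D. melanogaster held 89.1% and 88.5% in D. yakuba. The downstream eIF2beta site, with 159 and 0 tags in D. melanogaster, had 1239 and 437 tags in D. yakuba, or 80.2% and 79.7%. In all 4 genes D. yakuba used the site in both discs, and D. virilis values are given for Ldh only. Of the members past the rule with 0 tags in 1 D. melanogaster library, 13 could be compared in D. yakuba. Of these, 11 had tags in both D. yakuba libraries. In D. virilis 3 such members could be compared, and 3 had tags in both libraries. RpLP2 had most of its tags in D. yakuba at 12474044, with 95.3% and 94.7%, a site that held 22.6% and 0.794% in D. melanogaster.

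In D. virilis 1 member was past the rule in the same direction as in D. melanogaster. Bx42, the fly homologue of the splicing factor SKIP, had 92 and 33 tags downstream (8998174 on X) and 41 and 127 tags upstream (8998570). The upstream share of Bx42 was 21.5% and 59.3%, against 24.4% and 82.9% for D. virilis and 78.7% and 79.5% for D. yakuba. Tm1 was higher in the wing library at 11130650 in all 3 species, with 22% and 52.5% for D. melanogaster, 47.9% and 62.3% for D. yakuba and 34.1% and 57.6% for D. virilis.

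The share of shifted genes differed between classes of depth. In D. melanogaster 19.4% of genes with 100 to under 300 tags over both libraries were shifted, then 15.7% from 300 to under 1000, 10.3% from 1000 to under 3000 and 7.10% with 3000 or more. In D. yakuba the shares in the same classes were 3.83%, 2.12%, 0.730% and 0%. In D. virilis they were 8.36%, 3.44%, 4.51% and 3.16%. D. melanogaster was highest of the 3 species in each class. Shifted genes had a median of 435 tags and the others 623. They were spread over the large chromosome arms, with 15.3% of tested genes on 2L, 12.2% on 2R, 14.4% on 3L, 15.4% on 3R and 14.2% on X.

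**Figure D5:**
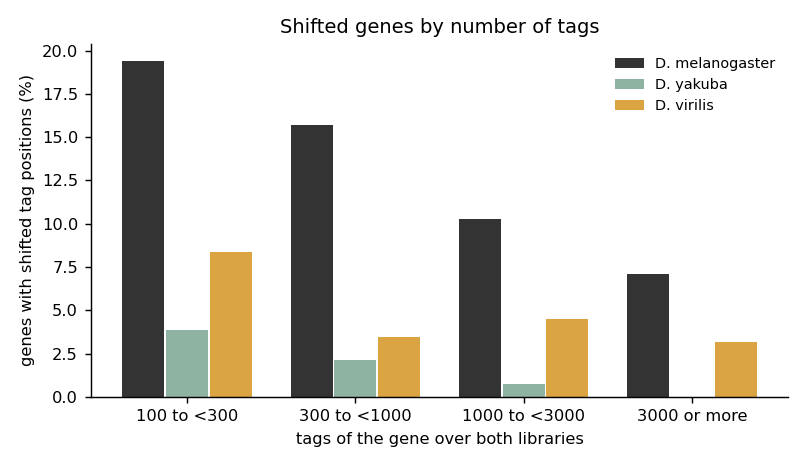
Percentage of tested genes with shifted tag positions (vertical axis) by the number of tags of the gene over both libraries (horizontal axis), in D. melanogaster, D. yakuba and D. virilis, each by its own positions. D. melanogaster lies between 19.4% and 7.10%, above the other species in every class.

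The limit of 50 tags cut through a continuous range. Exactly 50 tags were found at 58 positions and exactly 49 at 62. Just inside stood lark, with 29 and 21 tags at its lesser member, and Hsp23 with 18 and 32. Just outside stood sn with 10 and 39 tags and Su(var)2-10 with 28 and 21.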

How the data were processed

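The deposited files hold raw counts of tags per genomic position with the gene the authors assigned, per the file headers. Bowtie 0.12.1 is named in the submitters' processing notes; no source used here gives the mismatches allowed, the fate of multiply matching tags or whether coordinates start at 0 or 1. Shares were computed within each library, as a member's tags over all tags of its gene, with Wilson score intervals for a share and Newcombe intervals for a difference. For D. melanogaster places looked up in D. yakuba and D. virilis, the total held only the gene's tags placed on the D. melanogaster genome. Folds used edgeR 4.0.16 TMM factors over gene sums (1.05 and 0.949) with exact conditional binomial intervals. No model was fitted, since each group has 1 library. Gene symbols, strands, lengths, overlaps and 3′ ends came from BDGP release 6.54 (Ensembl release 115) by gene identifier, and no coordinate was converted. Members read in opposite directions from 1 site were recognised by a distance of 18 bases. The 13 gene lists matched 463 genes, with 19 symbols unmatched. Named genes were those with the largest downstream differences in each direction (up to 12), the most tags (up to 10), a different leading position and the most tags (up to 10), up to 8 per gene list, the smallest differences, those at the limit of 50 tags and those shifted in other species; eIF3a was named after its values were seen. The members and lists were chosen with earlier results of these data known. The script was tested on simulated data. Computation used Python 3.11.15, pandas 2.3.3, NumPy 2.4.6 and SciPy 1.17.1. The result of 1 gene is not reported here.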

Additional observations from a re-analysis of the deposited data

How the results depend on the processing

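Shares here are of the genes or members tested in each setting. With a position minimum of 20 tags 234 of 2099 genes (11.1%) were shifted, against 14.3% in the main setting. The downstream member was higher in wing in 60 of 1911 (3.14%). At 200 tags 33 of 258 (12.8%) were shifted and 14 (5.43%) had different leaders. Downstream members were higher in 19 (eye-antennal, 8.26%) and 8 (wing, 3.48%) of 230. Of the 258 genes 10 (3.88%) had members of opposite fold, and 30 and 115 of 592 members (5.07% and 19.4%) were 2-fold higher. The 469 genes that overlap no other gene gave 71 shifted (15.1%), 46 and 18 downstream (9.81% and 3.84%) and 40 different leaders (8.53%). At 100 tags per library 23 of 769 genes (2.99%) were higher downstream in wing and 52 of 868 (5.99%) had different leaders. A bound of 10 points gave 323 shifted (30.8%) and 159 and 83 downstream (17.0% and 8.89%). A bound of 40 points gave 55 shifted (5.25%) and 22 and 19 downstream (2.36% and 2.03%). A fold bound of 1.5 gave 86 genes of opposite fold (8.14%) and 313 and 557 members (12.1% and 21.5%). In D. yakuba and D. virilis the genome mapping gave 17 of 1445 (1.18%) and 32 of 726 (4.41%) shifted genes. A minimum of 200 tags gave 8 of 465 (1.72%) and 21 of 361 (5.82%). Among alternatives chosen after seeing the data, coding-strand members alone gave 62 of 381 shifted (16.3%). They gave 34 and 18 downstream (8.92% and 4.72%) and 28 different leaders (7.35%). Without positions at 0 in a library, 23 of 898 (2.56%) were higher downstream in wing and 47 of 1009 (4.66%) had different leaders. The cause of these changes was not tested, beyond the fewer genes and other bounds that the settings themselves bring. The other 25 counts and medians stayed within 1.5 times or the spread set for them. With positions closer than 30 bases merged, 142 of 909 genes (15.6%) were shifted, 132 of them also as listed. Of the named genes, Lsp1gamma (1.71 points), RpL7A (-0.28) and Act42A (0.52) lost the call and heph gained it, and small differences that were never past the rule changed sign in tsr, CCT6 and Pka-C1. No named shifted gene that kept its call changed direction there.

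No paired analysis was possible because each group has 1 library and no test was made, so leaving out a library was not an option either. Depth limits the rule, since intervals are wide in genes near 20 tags per library, and replicate spread is unknown.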
